A study of Homo sapiens with 6 samples.

Results

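The genes described here are the 10 that encode the D-type cyclins (CCND1, CCND2, CCND3), their kinase partners (CDK4, CDK6), the CIP/KIP inhibitors p21 and p27 (CDKN1A, CDKN1B), the INK4 inhibitors p18 and p19 (CDKN2C, CDKN2D) and the retinoblastoma protein (RB1). They were chosen by symbol, through their Ensembl identifiers in GENCODE 29, and make up 10 of 58735 genes counted. RNA-seq was done on Jurkat, a human leukaemia line of T cell origin, after infection with a lentiviral vector for a short hairpin RNA against SATB1 (shSATB1, labelled as the knockdown, 3 libraries) or for a control hairpin (shCtrl, labelled as control, 3 libraries). SATB1 is a chromatin-organising protein of T cells, and the comparison asks which transcripts differ once it is lowered. The cell line and the lentiviral delivery are common to both groups, each group carried 1 vector, and the labels give no time after infection. Whether replicates came from different cultures is not stated, so a p-value reflects library-to-library spread that could be purely technical.

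D-type cyclins bind CDK4 or CDK6, and the active kinase phosphorylates RB in G1 phase. RB that lacks this phosphate holds E2F factors in check, and its phosphorylation frees them to switch on genes of DNA replication. INK4 proteins bind CDK4 and CDK6 directly and keep cyclin D off, whereas p21 and p27 bind whole cyclin-kinase complexes and are strong inhibitors of CDK2. In the T lineage cyclin D3 and CDK6 are needed for the growth of immature thymocytes, and both are well-known dependencies of T cell acute leukaemia.

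The libraries held 26626539 to 28913623 reads in genes. SATB1 itself stood at 101.8, 100.2 and 104.1 CPM (reads scaled to a common library size by the TMM method) in shSATB1, against 279.1, 258.5 and 259.3 CPM in shCtrl, which left 38.4% of the control level. All 9 T cell markers checked were above 1 CPM in each library (TRAC rose and CD3D, CD247 and CD2 fell), with summed levels of 2491 to 2646 CPM in shSATB1 and 2569 to 2910 CPM in shCtrl. Of the 15 markers of B, myeloid, erythroid, fibroblast or epithelial cells, only CD79A and COL1A1 reached 1 CPM in all 6 libraries. The summed B cell markers, nearly all of it CD79A, were 48.2 to 56.1 CPM in shSATB1 and 55.4 to 65.2 CPM in shCtrl. The fibroblast and epithelial ones, nearly all COL1A1, were 20.4 to 21.6 CPM in shSATB1 and 14.5 to 17.3 CPM in shCtrl. Myeloid and erythroid sums stayed at or below 1.09 CPM in shSATB1 and 0.849 CPM in shCtrl, and EPCAM and HBA1 had no reads. Reads outside annotated exons made up 10.9% to 11.7% in shSATB1 and 7.77% to 10.2% in shCtrl. In bulk RNA, fewer cells in a phase of the cycle and less RNA per cell cannot be told apart.

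All 10 genes passed the filter on low counts. Of these, 4 rose (CCND1, CDK6, CDKN2D and RB1) and 3 fell (CCND3, CDK4 and CDKN2C) in shSATB1 (quasi-likelihood F test of edgeR, with a threshold of 0.05 on p adjusted by Benjamini-Hochberg over the 17520 genes tested). CCND2, CDKN1A and CDKN1B did not pass. Across all tested genes 14.3% rose and 16.6% fell, together 30.9%. In CPM, the 3 shSATB1 libraries lay on 1 side of the 3 shCtrl libraries for all 10 genes, including those that did not pass. The same held for 45.1% of tested genes. This depends on the scaling. In TPM, a level per exon length, CDKN1A overlapped, with 6.42 to 6.82 in shSATB1 and 6.55 to 7.79 in shCtrl. The other members did not overlap in TPM either. The median log2 fold change of the 10 was 0.20, against 0.01 over all tested genes. The D cyclins, the kinases and the INK4 inhibitors each held a gene that rose and a gene that fell.

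**Figure D1:**
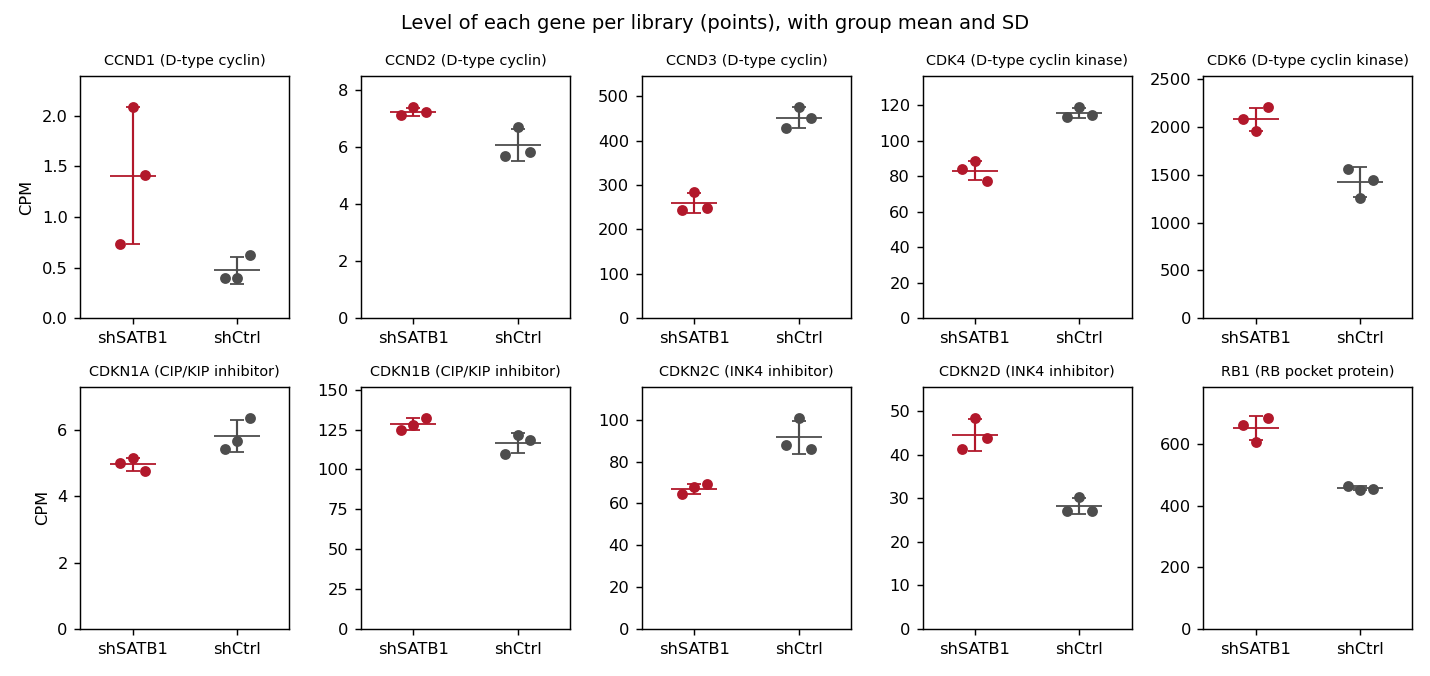
Level of each of the 10 genes in CPM, on axes that start at 0, with shSATB1 left of shCtrl. Points are single libraries, and the bars give the mean and SD of 3 libraries. The shSATB1 points lie wholly above or wholly below the shCtrl points in each panel.

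Among the cyclins, CCND3 carried nearly all of the D-type signal and was the member with the largest fall. CCND3 (ENSG00000112576, chromosome 6, 41934933 to 42050357, minus strand, hg38) had 244, 285 and 248 CPM in shSATB1, against 428, 474 and 452 CPM in shCtrl. The highest shSATB1 library was thus well under the lowest shCtrl library. In the edgeR fit this was a log2 fold change of -0.80 (SE 0.0722, adjusted p = 4.92e-06), a level 1.74-fold lower. Only 5.45% of tested genes had an absolute log2 fold change as large as this or larger. The call held in all 16 other settings of the fit, with log2 fold changes from -0.87 to -0.61.

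CCND1 (ENSG00000110092, chromosome 11, 69641087 to 69654474, plus strand), the cyclin D of many epithelial and fibroblast lines, was barely present. It had 20, 59 and 41 reads in the shSATB1 libraries, against 11, 11 and 17 reads in the shCtrl libraries. That is 0.728, 2.08 and 1.41 CPM in shSATB1 and 0.395, 0.400 and 0.628 CPM in shCtrl. The log2 fold change of 1.57 had an SE of 0.391 (edgeR adjusted p = 0.00797). The call was lost without shSATB1 replicate 2, the highest library (log2 fold change 1.18, adjusted p = 0.0616), and the gene was not tested where 1 CPM in 3 libraries was required. COL1A1, a fibroblast marker, was also higher in shSATB1. The other fibroblast and epithelial markers were near or at no reads. COL1A2 had 0.0728, 0 and 0 CPM in shSATB1 and 0 CPM in each shCtrl library. KRT8 had 0.106 to 0.218 CPM in shSATB1 and 0.0718 to 0.400 CPM in shCtrl, and EPCAM had no reads. Whether COL1A1 has a part in the CCND1 result was not tested. On the opposite strand, LTO1 shares 497 of the 4830 exonic bases of CCND1, and it stood at 32.6, 34.3 and 32.0 CPM in shSATB1 and 34.1, 34.1 and 33.3 CPM in shCtrl.

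CCND2 (ENSG00000118971, chromosome 12, 4273772 to 4305350, plus strand), which is the cyclin D of many proliferating lymphocytes, was also low in these cells. It had 7.10, 7.37 and 7.21 CPM in shSATB1, against 5.67, 6.69 and 5.80 CPM in shCtrl. Its log2 fold change was 0.26 with a 95% interval from 0.0040 to 0.51 before adjustment (edgeR adjusted p = 0.115). The gap between the lowest shSATB1 and the highest shCtrl library was smaller than the distance between shCtrl replicates 1 and 2, and CCND2 passed without shCtrl replicate 2 (0.34, adjusted p = 0.0475). On the same strand, AC008012.1 shares 989 of the 7157 exonic bases of CCND2 (13.8%). Reads from this stretch may have been dropped as ambiguous, so the level of CCND2 is uncertain, as is its part in the summed cyclin level.

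Set per length, CCND3 made up 97.4%, 97.1% and 97.0% of the D-type cyclin level in shSATB1 libraries, against 98.8%, 98.8% and 98.8% in shCtrl libraries. The difference was -1.63 percentage points (two-sided exact permutation test over libraries, p = 0.1, the smallest that 3 against 3 can give). CCND3 reads were wholly lower and CCND1 and CCND2 reads wholly higher in shSATB1, so this p was fixed by those values. The difference was -0.76 points with the longest transcript as the length in place of all annotated exons. The summed level of the 3 cyclins was 178, 204 and 181 TPM (a level per exon length that sums alike in every library, computed here from the counts) in shSATB1. In shCtrl it was 287, 291 and 295 TPM.

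CDK6 and CDK4, which both phosphorylate RB when bound to cyclin D, moved in opposite directions. CDK6 (ENSG00000105810, chromosome 7, 92604921 to 92836594, minus strand) had 2078, 1961 and 2202 CPM in shSATB1, against 1562, 1254 and 1445 CPM in shCtrl. On the log2 scale the difference was 0.55 (SE 0.0805, edgeR adjusted p = 0.000231). CDK4 (ENSG00000135446, chromosome 12, 57747727 to 57756013, minus strand) had 83.8, 88.4 and 77.3 CPM in shSATB1, against 114, 119 and 115 CPM in shCtrl. The log2 fold change came to -0.48 (SE 0.0653, edgeR adjusted p = 0.000150). Both calls held in all 16 other settings. The log2 fold change of CDK6 was 0.24 with the share of reads outside exons as a covariate (adjusted p = 0.00869).

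The ratio of CDK6 to CDK4 reads does not depend on how libraries are scaled. Its log2 value was 4.63, 4.47 and 4.83 in shSATB1, against 3.78, 3.40 and 3.66 in shCtrl. The balance was thus 2.05-fold further toward CDK6 in shSATB1 (two-sided exact permutation test, p = 0.1, the smallest possible). CDK6 reads were higher and CDK4 reads lower in every shSATB1 library than in any shCtrl library. The ratio therefore had to separate the groups, and its p adds nothing to the results for the 2 genes. The log2 difference was 0.93 to 1.12 with any 1 library left out. The ratio is not corrected for gene length, GC content or the share of reads outside exons. Corrected for length and GC content, the log2 fold changes were 0.37 for CDK6 and -0.35 for CDK4. With the share of reads outside exons as a covariate they were 0.24 for CDK6 and -0.38 for CDK4. Each is smaller in size than the value reported above. CDK4 shares 1369 of its 3168 exonic bases (43.2%) with TSPAN31 on the opposite strand. The strand setting of the counting is not given, so reads from this stretch may have been dropped as ambiguous or credited to either gene. TSPAN31 had 20.5, 20.0 and 18.9 CPM in shSATB1, against 19.0, 15.4 and 17.9 CPM in shCtrl, a log2 fold change of 0.18 that did not pass (edgeR adjusted p = 0.155). Reads for CDK4 are thus uncertain in level. The pseudogenes CDK4P1, CCND2P1, CCND3P1 and CCND3P2 had 0 reads in all 6 libraries.

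The promoters of both kinases are printed because CDK4 and CDK6 changed in opposite directions, and because they hold the E-box CACGTG, the sequence bound by MYC. Each window runs from 250 bases before to 50 bases after a RefSeq start (GRCh38.p14), written 5′ to 3′ on the strand of the gene, with CACGTG in capitals.
CDK4, chr12:57752261-57752560, minus strand: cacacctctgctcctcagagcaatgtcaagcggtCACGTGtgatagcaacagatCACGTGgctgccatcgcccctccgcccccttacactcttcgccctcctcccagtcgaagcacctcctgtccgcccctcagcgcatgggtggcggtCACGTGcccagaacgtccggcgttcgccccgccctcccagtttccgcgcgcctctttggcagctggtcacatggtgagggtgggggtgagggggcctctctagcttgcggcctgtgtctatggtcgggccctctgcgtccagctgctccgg
CDK6, chr7:92836524-92836823, minus strand: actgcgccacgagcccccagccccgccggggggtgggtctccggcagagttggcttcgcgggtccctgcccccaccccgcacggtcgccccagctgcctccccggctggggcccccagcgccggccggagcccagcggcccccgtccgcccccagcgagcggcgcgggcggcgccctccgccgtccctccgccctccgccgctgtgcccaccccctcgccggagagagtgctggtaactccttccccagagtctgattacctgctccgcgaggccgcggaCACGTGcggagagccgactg
The CDK4 window holds 3 copies of CACGTG, whose first bases lie 216, 196 and 101 bases before the start, and CDK6 holds 1, at base 31 after it. Of 35116 windows of this length in the table, 7.26% hold at least 1 copy and 33 windows (0.094%) hold 3 or more. CACGTG reads the same on both strands.

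Windows were found for 8 of the 10 genes, 13 in all, and none for CCND1 or CCND2. The single RB1 window belongs to a start 172724 bases inside the gene, so the promoter at the first base of RB1 was not searched. The starts of the CDK4, CDKN1A and CDKN1B windows lie 3703, 2254 and 2310 bases inside the longest GENCODE extent, and that of the nearest CCND3 window 1669 bases. CACGTG was present in 4 of the 13, those of CDK4, CDK6 (1 of its windows) and CDKN2C (2 of its windows). The E2F sequences TTTCCCGC, TTTGGCGC, TTTCGCGC and TTTGCCGC, sought on both strands, were in 0 of the 13 and in 3.31% of all windows, which says nothing of the RB1 promoter. The motifs were chosen with the fold changes known. A match describes letters only, and a gene that rose (CDK6) and genes that fell (CDK4, CDKN2C) all had one.

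The INK4 genes also parted. CDKN2D (p19, ENSG00000129355, chromosome 19, 10566462 to 10569059, minus strand) had 41.3, 48.4 and 43.8 CPM in shSATB1, against 27.1, 30.3 and 27.1 CPM in shCtrl. In the edgeR fit this was a log2 fold change of 0.66 (SE 0.0806, adjusted p = 6.24e-05), 1.58-fold higher, and the call held in all 16 other settings. CDKN2C (p18, ENSG00000123080, chromosome 1, 50960745 to 50974633, plus strand) had 64.5, 67.7 and 69.1 CPM in shSATB1, against 88.1, 101 and 86.2 CPM in shCtrl. On the log2 scale the difference was -0.45 (SE 0.0711, edgeR adjusted p = 0.000423). The CDKN2C call was lost with the share of reads outside exons as a covariate (log2 fold change -0.25, adjusted p = 0.0622).

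The log2 ratio of CDKN2D to CDKN2C reads, a quantity picked after these values were seen and so given with no p, was -0.64, -0.48 and -0.66 in shSATB1, against -1.70, -1.73 and -1.67 in shCtrl. Reads do not allow for length. Per length, CDKN2D had 113, 130 and 120 TPM and CDKN2C 79.9, 82.4 and 85.7 TPM in shSATB1, while in shCtrl CDKN2D was the lower of the pair. In the ratio the spread within a group was small beside the gap between groups. The other INK4 genes, CDKN2A and CDKN2B, which are deleted in Jurkat cells, had CPM values of 0 to 0.141 in shSATB1 and 0 to 0.0359 in shCtrl for CDKN2A, and no reads for CDKN2B. They were not tested.

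**Figure D2:**
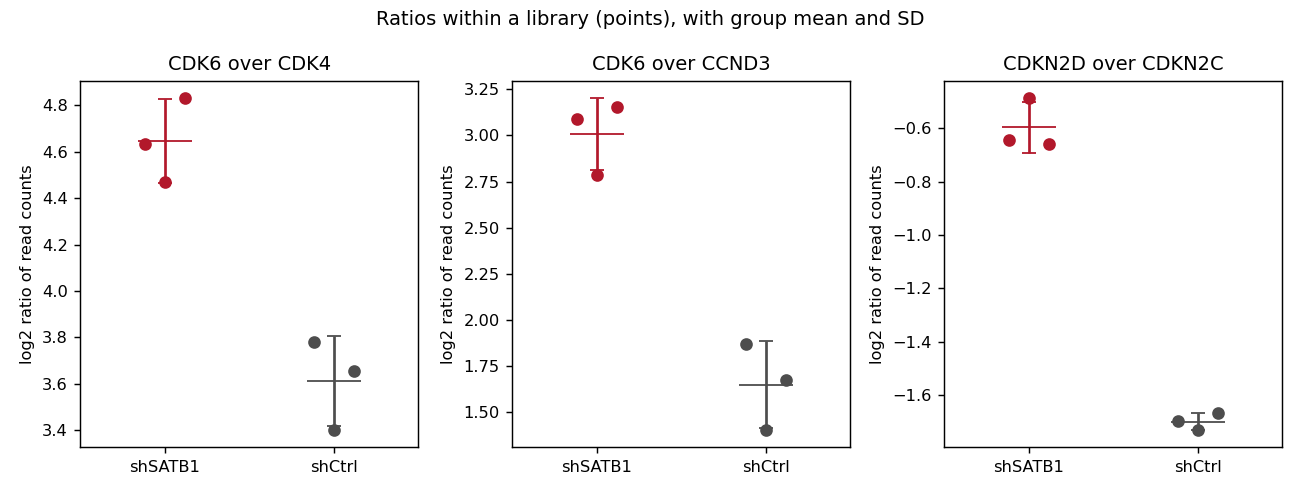
Log2 ratios of read counts within each library for CDK6 over CDK4, CDK6 over CCND3 and CDKN2D over CDKN2C, with shSATB1 left of shCtrl and with axes that do not start at 0. Points are libraries, and bars give the mean and SD (n = 3). The group means are at least 1 log2 unit apart in each panel, and the groups do not overlap.

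The CIP/KIP inhibitors did not pass. CDKN1B (p27, ENSG00000111276, chromosome 12, 12715058 to 12722371, plus strand), which is kept low in cycling cells mainly by degradation of the protein, had 125, 128 and 132 CPM in shSATB1, against 109, 122 and 119 CPM in shCtrl. Its log2 fold change was 0.14 with a 95% interval from 0.0034 to 0.27 (edgeR adjusted p = 0.112). It passed, in the same direction, without shCtrl replicate 2 (0.18, adjusted p = 0.0247), when length and GC content were corrected for (0.29, adjusted p = 0.000351) and under the covariate, the share of reads outside exons (0.26, adjusted p = 0.0348). CDKN1A (p21, ENSG00000124762, chromosome 6, 36676460 to 36687339, plus strand), the classic p53 target, was low at 4.99, 5.15 and 4.76 CPM in shSATB1, against 5.42, 5.67 and 6.35 CPM in shCtrl. Its log2 fold change was -0.23 with a 95% interval from -0.50 to 0.045 (edgeR adjusted p = 0.193), and it passed in none of the 16 other settings. Jurkat cells lack functional p53.

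RB1 (ENSG00000139687, chromosome 13, 48303726 to 48599436, plus strand) had 662, 608 and 684 CPM in shSATB1, against 464, 450 and 456 CPM in shCtrl. The shCtrl libraries lay close together, and the lowest shSATB1 library was well above them. The log2 fold change came to 0.51 (SE 0.0633, edgeR adjusted p = 6.69e-05), and the call held in all 16 other settings (0.41 to 0.57). The phosphorylation of RB was not measured here.

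Fold changes across the transcriptome went with transcript length, and the members are spread along that axis. Among genes of 8 CPM or more in 5 groups of equal number by exonic length, the median log2 fold change was -0.21 in the shortest group and 0.12 in the longest. CDK6 lies in the longest group, where 33.9% of genes rose, and RB1 in the next, where 21.7% did. CDK4 and CDKN2C lie in the group second from the shortest, where 31.8% fell. CDKN2D lies in the shortest group, where 5.92% rose and 44.5% fell, and CCND3 in the middle group, where 22.5% fell. With the length and GC correction the log2 fold changes were 0.84 for CDKN2D, 0.41 for RB1, 0.37 for CDK6, -0.34 for CDKN2C, -0.35 for CDK4 and -0.79 for CCND3, and each still passed.

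**Figure D3:**
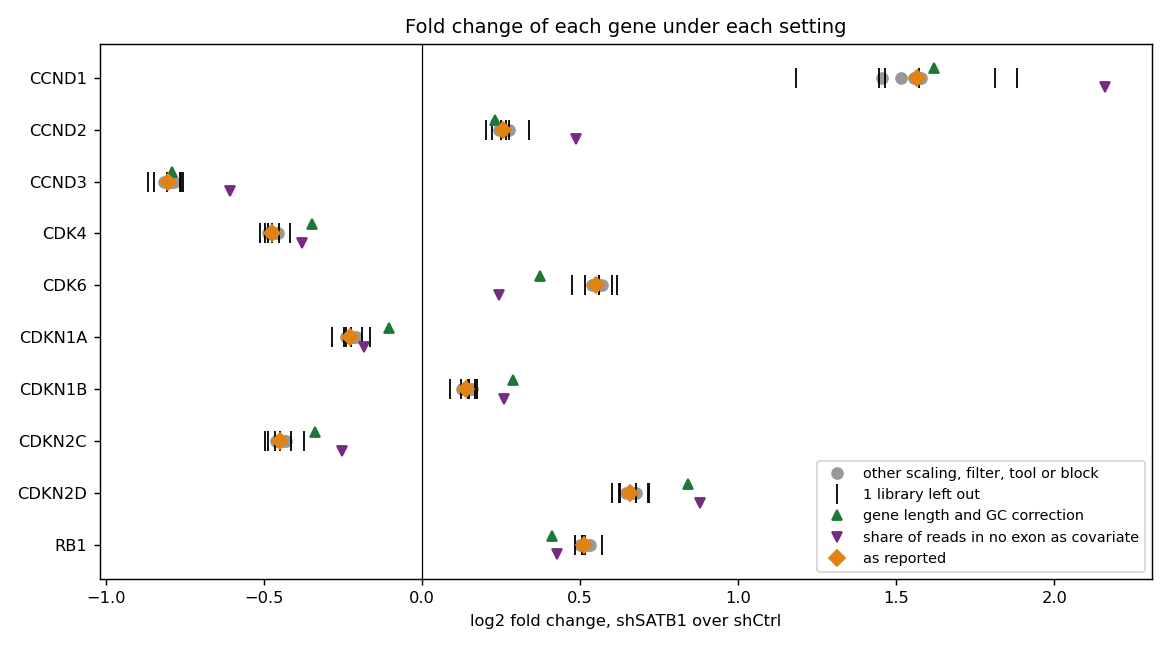
Log2 fold change of shSATB1 over shCtrl for each gene under each setting of the fit (x axis), with the reported value as a diamond. Grey circles are other scalings, filters, tools and the replicate block, ticks are fits with 1 library left out, and triangles are the length and GC correction and the covariate. None of the 10 genes crosses 0.

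Levels of different genes can be set beside each other only per length, in TPM. In shSATB1 the order by mean was CDK6 at 694 ± 47.0 TPM (SD, n = 3 here and below), RB1 at 413 ± 29.1, CDKN1B at 187 ± 6.03, CCND3 at 182 ± 13.7, CDKN2D at 121 ± 8.54, CDK4 at 107 ± 6.28, CDKN2C at 82.7 ± 2.91, CDKN1A at 6.65 ± 0.208, CCND2 at 4.13 ± 0.0410 and CCND1 at 1.19 ± 0.560 TPM. Neighbours in this order did not overlap in range, except CDKN1B and CCND3. In shCtrl the order was CDK6 at 430 ± 65.8 TPM, CCND3 at 288 ± 3.65, RB1 at 262 ± 15.7, CDKN1B at 153 ± 3.95, CDK4 at 135 ± 3.06, CDKN2C at 102 ± 4.91, CDKN2D at 69.3 ± 1.81, CDKN1A at 7.06 ± 0.648, CCND2 at 3.12 ± 0.146 and CCND1 at 0.364 ± 0.106 TPM. No neighbours overlapped there. CCND3 thus ranked 4 in shSATB1 and 2 in shCtrl, and CDKN2D ranked 5 in shSATB1 and 7 in shCtrl.

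The order leans on the length assumed for each gene. With the longest annotated transcript as the length, a choice made after seeing the data, CCND3 ranked 3 in shSATB1 and 1 in shCtrl. CDK6 then ranked 1 in shSATB1 and 2 in shCtrl. Summed over CDK4 and CDK6 the level was 806, 758 and 840 TPM in shSATB1, against 628, 492 and 576 TPM in shCtrl. Summed over the 4 inhibitors it was 382, 403 and 405 TPM in shSATB1, against 328, 337 and 330 TPM in shCtrl. In TPM the kinase and inhibitor sums were higher in shSATB1 and the cyclin sum lower, with no overlap between the groups. The exact permutation p was 0.1 for each, the smallest possible, but the sums were not planned quantities. CCND3 made up nearly all of the cyclin sum and CDK6 most of the kinase sum, so both largely repeat the results for those genes. With CPM per kilobase of exon in place of TPM, a scaling added after seeing the data, the inhibitor sum was 92.9, 99.9 and 98.5 in shSATB1, against 85.3, 95.7 and 88.2 in shCtrl. These groups overlap (exact permutation p = 0.2), and the ratio of means is 1.08, less than in TPM (means of 397 TPM in shSATB1 and 332 TPM in shCtrl). The cyclin and kinase sums did not overlap on that scale either, with ratios of 0.583 and 1.29. The log2 ratio of CDK6 to CCND3 reads, picked after these values were seen and given with no p, was 3.09, 2.78 and 3.15 in shSATB1, against 1.87, 1.40 and 1.68 in shCtrl.

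**Figure D4:**
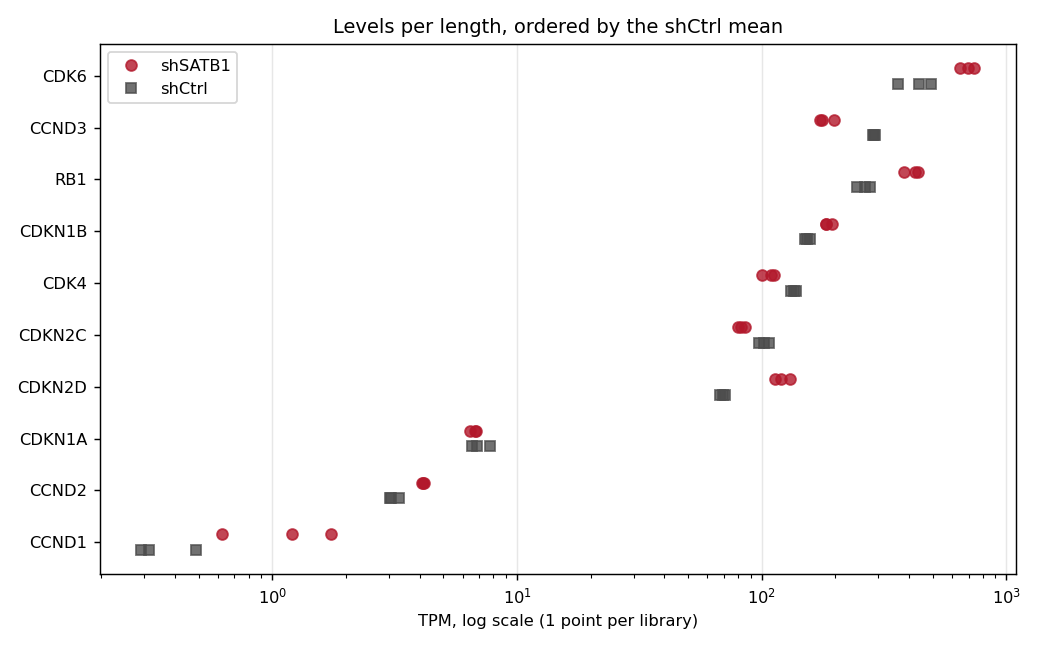
Level per length of each gene in TPM on a log axis, 1 point per library, with shSATB1 circles above shCtrl squares, ordered by the shCtrl mean. CDK6 is highest in both groups, and CDKN1A, CCND2 and CCND1 lie more than 10-fold below the other 7 genes in shSATB1.

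Of 58 other genes of the pathway in 7 lists, 56 were tested, 6 rose and 22 fell, with a median log2 fold change of -0.14 against 0.01 over all tested genes. Over all tested genes 14.3% rose and 16.6% fell, and counts in the smaller lists, such as 1 of 7 or 2 of 8, are too small to set apart from those shares. With the covariate 3 rose. The falls numbered 13 with the covariate, and 14 without shSATB1 replicate 1. In the list of S phase genes known as E2F targets, 9 of 11 fell, 0 rose, and the median was -0.37. These 11 were picked with earlier results of these data known. They do not stand for all E2F targets. CDT1, which loads the replicative helicase, had 92.6, 101 and 95.5 CPM in shSATB1, against 137, 148 and 146 CPM in shCtrl, a log2 fold change of -0.57 (SE 0.0627, edgeR adjusted p = 2.53e-05). MCM3, a subunit of that helicase, had 307, 321 and 305 CPM in shSATB1, against 436, 470 and 437 CPM in shCtrl. ORC1 and PCNA, of the origin recognition complex and the sliding clamp, fell with log2 fold changes of -0.51 and -0.50. RRM1 and RRM2, the subunits of ribonucleotide reductase, had log2 fold changes of -0.12 and -0.15 that did not pass (edgeR adjusted p = 0.156 and 0.212). Of the 10 E2F and DP factors, 4 fell and 0 rose. E2F1, an activating E2F, had 64.4, 69.4 and 62.7 CPM in shSATB1, against 89.9, 94.1 and 92.4 CPM in shCtrl (log2 fold change -0.49, SE 0.0631, edgeR adjusted p = 8.65e-05). The others were TFDP1, the DP partner (-0.24), E2F6 (-0.24) and E2F4 (-0.21). Under the covariate none of these 3 passed (adjusted p = 0.0908, 0.832 and 0.510). TFDP1 was also lost without shSATB1 replicate 1 (adjusted p = 0.0503). E2F4 was lost without shSATB1 replicate 1 or 3 or shCtrl replicate 3 (adjusted p = 0.176, 0.109 and 0.117), and with the length and GC correction (-0.11, adjusted p = 0.0558). E2F6 was lost without any 1 library other than shCtrl replicate 1 (adjusted p from 0.0772 to 0.108).

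Of 7 pocket proteins and MuvB core genes, only RBL2 was called. RBL2, the RB relative p130 that binds E2F4 in resting cells, had 120, 115 and 118 CPM in shSATB1, against 101, 78.3 and 87.0 CPM in shCtrl (log2 fold change 0.40, SE 0.0811, edgeR adjusted p = 0.00211). Under the covariate its value was 0.096 (adjusted p = 0.550), and it did not pass. RBL1, the relative p107, had a log2 fold change of 0.04 with a 95% interval from -0.13 to 0.20. RBBP4, the histone-binding subunit with the highest level in this list, had 525, 521 and 515 CPM in shSATB1 and 551, 598 and 548 CPM in shCtrl, and did not pass (log2 fold change -0.12, adjusted p = 0.153). It passed with the length and GC correction (-0.24, adjusted p = 0.00836).

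Of 9 genes around cyclin E, cyclin A and CDK2, 6 fell and 1 rose. The rise was CCNE1, cyclin E1, the cyclin that follows cyclin D, at 15.3, 16.2 and 14.1 CPM in shSATB1, against 10.4, 13.0 and 10.7 CPM in shCtrl (log2 fold change 0.42, edgeR adjusted p = 0.00890). It missed the threshold without shCtrl replicate 3 (adjusted p = 0.0554). CDC37, the HSP90 co-chaperone that helps CDK4 and CDK6 fold, had 155, 170 and 169 CPM in shSATB1, against 208, 244 and 220 CPM in shCtrl. Its log2 fold change was -0.44 (edgeR adjusted p = 0.000494; 0.0689 with the covariate). CCNA2, the S phase cyclin A, fell with a log2 fold change of -0.36 and CDK2 with -0.24. The CDK-activating kinase CDK7 fell as well, with a log2 fold change of -0.31, as did its cyclin CCNH with -0.24 and the assembly factor MNAT1 with -0.28. The edgeR adjusted p was 0.0286 for CDK2, 0.0236 for CCNH and 0.0458 for MNAT1. The MNAT1 groups overlap, with 19.2 to 23.4 CPM in shSATB1 and 22.6 to 27.6 CPM in shCtrl. Refits of CDK2, CCNH and MNAT1 were not examined gene by gene. For CDK7 the adjusted p was 0.114 if shSATB1 replicate 2 was left out, 0.0842 if shSATB1 replicate 3 was, 0.0635 if shCtrl replicate 2 was, and 0.851 under the covariate.

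Of 8 genes of cyclin and inhibitor turnover, CKS1B and SKP1 fell and 0 rose. CKS1B, the adaptor that lets the SKP2 ligase recognise p27, had 85.6, 93.5 and 88.5 CPM in shSATB1, against 103, 125 and 117 CPM in shCtrl (log2 fold change -0.37, edgeR adjusted p = 0.00222; 0.493 with the covariate). SKP1, the ligase adaptor, had a log2 fold change of -0.31 (edgeR adjusted p = 0.0231) whose sign turned with the covariate (0.09). Nor did it pass if shSATB1 replicate 1, 2 or 3 was left out (adjusted p = 0.0556, 0.102 and 0.113). SKP2 had a log2 fold change of -0.07 with a 95% interval from -0.20 to 0.057. CDKN1C, the CIP/KIP inhibitor p57, had 2.11, 2.61 and 3.41 CPM in shSATB1 and 2.22, 2.22 and 2.10 CPM in shCtrl, and did not pass (adjusted p = 0.260).

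Of 10 transcription factors known to act on D cyclin or inhibitor genes, 4 rose and MYC fell. MYC, which induces CDK4 and CCND2 and represses CDKN1A, had 299, 318 and 310 CPM in shSATB1, against 486, 514 and 505 CPM in shCtrl (log2 fold change -0.70, SE 0.0598, edgeR adjusted p = 3.23e-06). FOXO1, a FOXO factor that can induce CDKN1B, had 12.2, 13.2 and 14.0 CPM in shSATB1, against 9.83, 7.86 and 7.64 CPM in shCtrl (0.64, adjusted p = 0.00100; 0.141 with the covariate). HES1, the Notch target that represses CDKN1B, had 6.23, 6.35 and 7.34 CPM in shSATB1, against 3.26, 3.96 and 3.77 CPM in shCtrl (0.86, adjusted p = 0.000478). SMAD3, through which TGF-beta raises CDK inhibitor genes, had 71.2, 71.8 and 71.3 CPM in shSATB1, against 54.4, 45.6 and 52.3 CPM in shCtrl (0.49, adjusted p = 0.000227; 0.0502 with the covariate). FOXO3 was the other rise, with a log2 fold change of 0.29. NOTCH1 did not pass, with a log2 fold change of -0.24 and groups that overlap (adjusted p = 0.0512). These adjusted p are from edgeR.

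**Figure D5:**
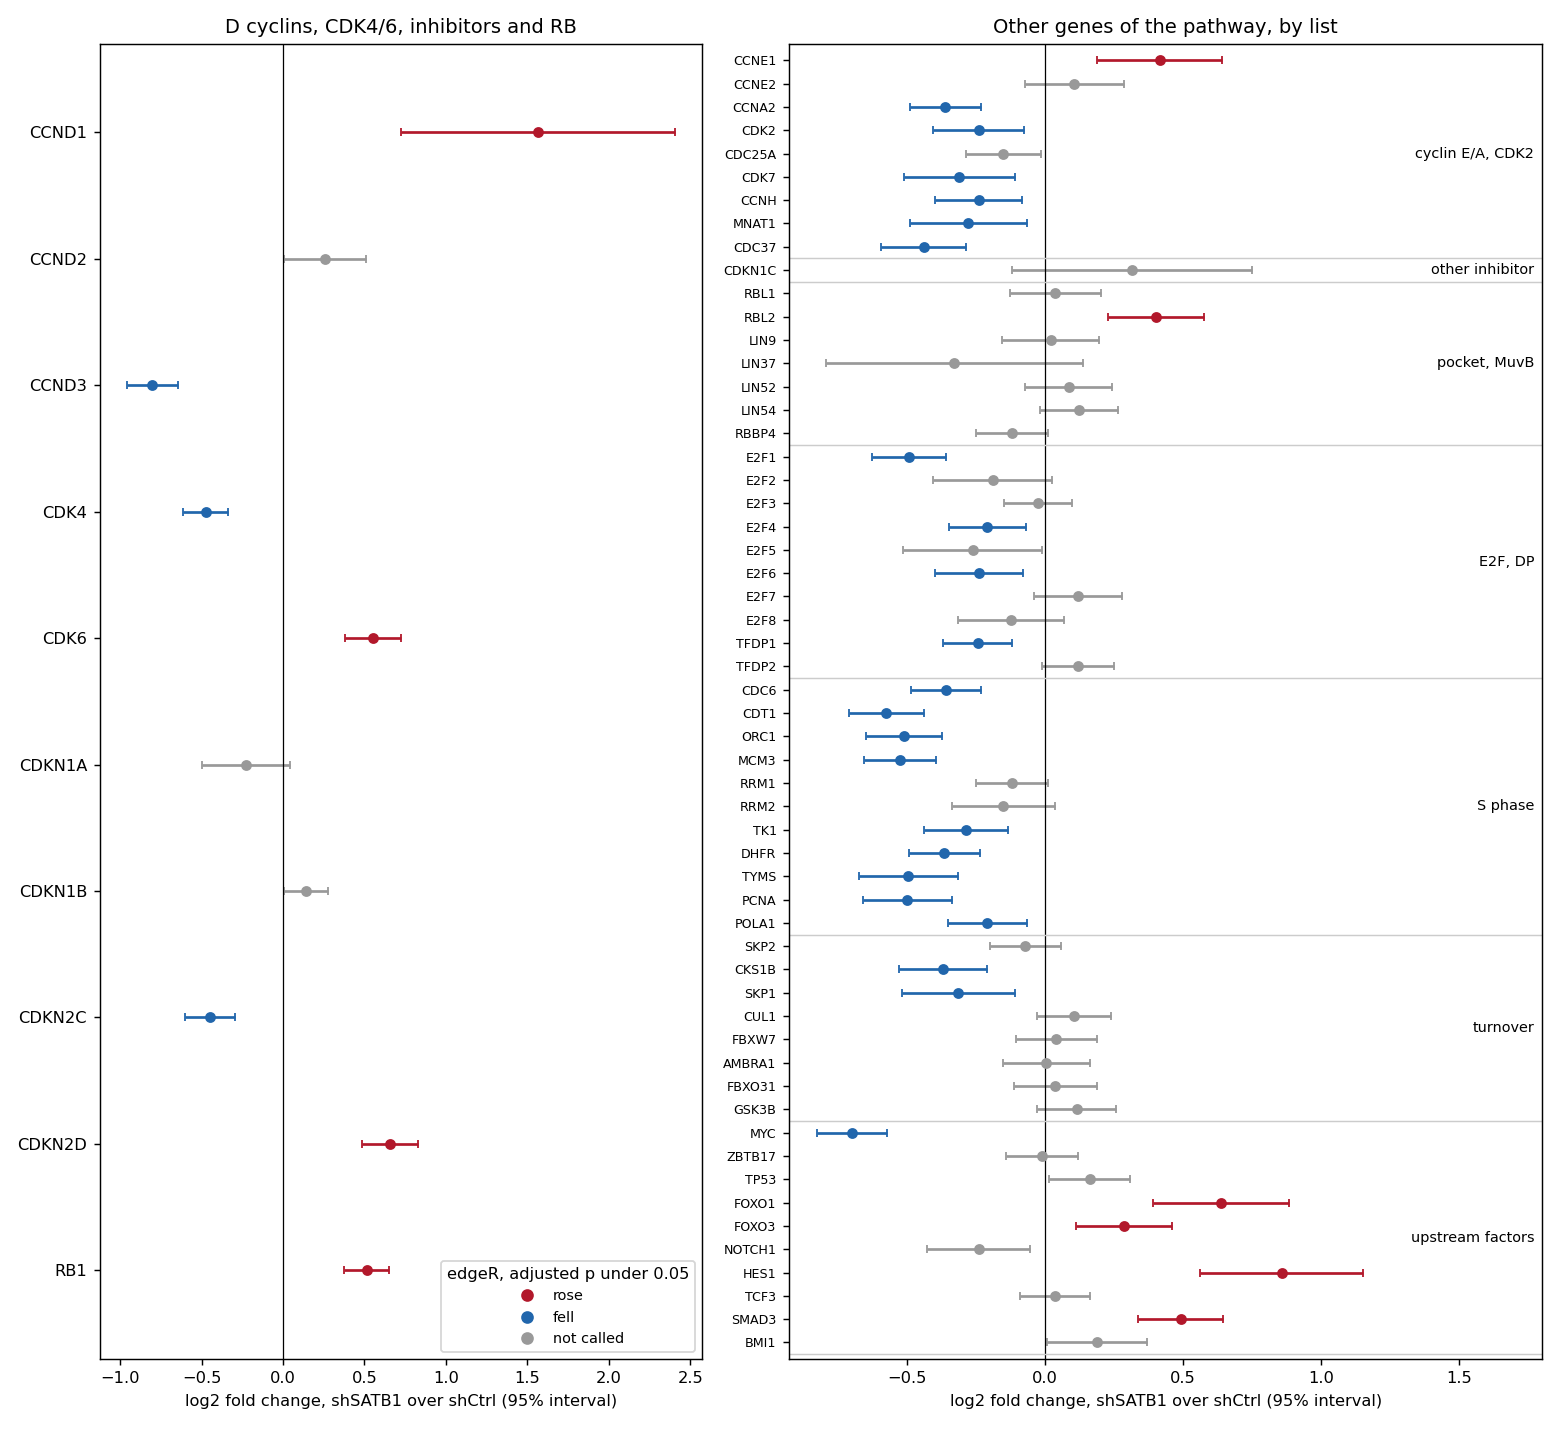
Log2 fold change of shSATB1 over shCtrl with its 95% interval (edgeR, n = 3 libraries per group) for the 10 genes on the left and for 56 other tested genes of the pathway on the right, by list. Red marks genes that rose, blue genes that fell and grey genes not called. The S phase list has 9 blue genes of 11, while the 10 genes on the left hold 4 red and 3 blue.

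The nearest tested protein-coding gene on either side of each member was also read, 20 genes in all. Of these 20, 5 rose and 4 fell, beside 14.3% and 16.6% of all tested genes. Beside the 7 called members stood 14 neighbours, of which 6 were called in the same direction as the member and 0 in the opposite one. FAF1, which starts 482 bp from CDKN2C and runs the other way, had 80.6, 78.4 and 79.0 CPM in shSATB1, against 94.2, 104 and 99.9 CPM in shCtrl (log2 fold change -0.33, edgeR adjusted p = 0.00145). KRI1, a ribosome biogenesis gene 425 bp from CDKN2D, had 140, 141 and 139 CPM in shSATB1, against 118, 116 and 114 CPM in shCtrl (0.27, adjusted p = 0.00278). BYSL, 1887 bp from the end of CCND3, had a log2 fold change of -0.27 (edgeR adjusted p = 0.00445), while TAF8, 156 bp from its other edge, had 0.02 and did not pass (adjusted p = 0.851). FAM133B and SAMD9, farther off at 14527 and 262919 bp from CDK6, rose with log2 fold changes of 0.21 and 0.31. CYSLTR2, 54275 bp from RB1, rose with 0.91 at a level of 1.06 to 1.31 CPM in shSATB1 and 0.574 to 0.702 CPM in shCtrl. Reads that run past the end of CDKN2D or CCND3 could be credited to KRI1 or BYSL, and their part in these values was not tested.

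For the called members with the largest fall and the largest rise, the 3 genes of closest pattern were sought over the 6 libraries among 11339 tested protein-coding genes of 2 CPM or more. Closeness was the root mean square difference in log2 CPM after centring each gene. For CCND3 these were ADA (adenosine deaminase) at 0.0381, MED9 (a Mediator subunit) at 0.0453 and SLC29A1 (a nucleoside transporter) at 0.0485. ADA had 522, 574 and 534 CPM in shSATB1, against 875, 988 and 910 CPM in shCtrl. SLC29A1 had 84.8, 93.7 and 90.2 CPM in shSATB1, against 153, 160 and 158 CPM in shCtrl. For CCND1 the closest were SSPO at 0.41, MYLIP (a ligase for the LDL receptor) at 0.42 and ZBTB47 at 0.44, about 10 times as far. CCND1, with 11 to 59 reads per library, averaged 0.941 CPM, under the 2 CPM asked of the genes compared. The part of counting error in its larger distances was not tested. All these patterns are descriptions of 6 libraries that share their groups.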

How the data were processed

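RNA-seq of total RNA from 6 Jurkat libraries, 3 shSATB1 and 3 shCtrl by their titles, was analysed from the raw read counts per Ensembl gene that the authors deposited, 1 unpooled table per library. Per the submitters' processing notes, the tools were Trim Galore, STAR and HTSeq and the build hg38. For their versions, the annotation release and the strand setting, the entry is "not given in the sources used here". All 58735 identifiers matched GENCODE 29, which supplied symbols, positions and exon lengths.

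Each table's 5 closing lines name no gene and stayed out of library sizes and tests. Among all reads of a library, reads outside exons averaged 11.4% in shSATB1 and 9.10% in shCtrl, ambiguous reads 9.11% in shSATB1 and 9.84% in shCtrl, and reads not uniquely aligned 4.33% in shSATB1 and 4.34% in shCtrl. No libraries of a group were identical (chi-square per degree of freedom 2.80 to 20.5). The highest values, 20.5 and 8.84, came from the pairs that hold shCtrl replicate 2. That library also had the lowest share of reads outside exons (7.77%). At this depth 3 reads equal 0.103 to 0.111 CPM, counting error only.

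Tests across genes used edgeR 4.0.16 under R 4.3.3, with TMM, filterByExpr with a minimum count of 10, quasi-likelihood F test without covariates, Benjamini-Hochberg adjustment over 17520 genes, threshold 0.05. The method was also run on simulated counts. These held far fewer changed genes than were called here, no trend with length and no difference in reads outside exons. That run thus says nothing of calls that move with those features. CPM uses TMM-adjusted library sizes. TPM was computed from counts and the union of annotated exons. Sums and ratios were compared by exact permutation tests (scipy 1.17.1). Promoter sequences are RefSeq's (GRCh38.p14).

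The alternatives were DESeq2 1.42.0 size factors and test, upper quartile scaling, 2 filters, limma-voom (limma 3.58.1), a replicate block, each library left out, a null of a 1.2-fold change, length and GC correction, and the share of reads outside exons as a covariate ("the covariate"). A second exon length was tried for shares and, added later, for TPM ranks, and TMM-scaled CPM per kilobase was added for the sums. The members and lists were chosen with earlier results of these data known. Named besides all members were SATB1, the closest patterns and some of the genes overlapping a member. Per list, at most 4 called genes were named, taken by size of change (if under 2 were called, the 2 with most CPM). The other genes named were chosen after their values were seen.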

Additional observations from a re-analysis of the deposited data

How the results depend on the processing

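In 153 refits single members kept direction and side of the threshold, in 4 they gained a call, in 2 they lost one, and 0 changed sign. The exceptions were CCND1, CCND2 (which passed without shCtrl replicate 2, log2 fold change 0.34, adjusted p = 0.0475), CDKN1B and CDKN2C. The other exceptions stand beside those genes. Across all genes, 758 rose and 698 fell against a null of a 1.2-fold change, and 858 rose and 1262 fell with the covariate. Among pathway genes, 3 rose and 8 fell against the 1.2-fold null, and 3 rose and 13 fell with the covariate. With 1 library left out, 1650 to 3218 genes rose and 1817 to 3562 fell, 3 to 6 members rose and 3 fell, and 4 to 7 pathway genes rose and 14 to 23 fell. The CCND3 share then differed by -1.72 to -1.57 points and the log2 ratio of CDK6 to CDK4 by 0.93 to 1.12. With the covariate SKP1 changed sign (log2 fold change 0.0906). Of the other refits of named pathway genes, 35 lost a call, 1 gained one and 299 did neither. The cause of these shifts was not tested, except that the 1.2-fold null is stricter by construction. The share of reads outside exons was higher in every shSATB1 library, so covariate and group overlap. The replicate block gave 2783 rises and 3120 falls and changed no call of a member. Same-numbered libraries correlated at 0.26, 0.16 and -0.06 after centring on group means, so the numbers were not taken as pairs. Depth limits CCND1, with 11 to 59 reads per library.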
